A study of Mus musculus with 56 samples.

Results

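Voltage-gated sodium and calcium channel genes were followed in RNA sequencing of the mouse anterior hypothalamus. The genes were chosen by symbol: Scn followed by a number and a or b, and every symbol starting with Cacna1, Cacna2d, Cacnb or Cacng. The deposited table holds 40 of them among 17564 genes, and 39 passed the filter on low values (80% or more of the mice at a deposited value of 1 or higher), as did 16245 genes in all. The 1 gene left out, Scn4a, reached that value in 14 of 56 mice, with 0 to 8 reads per mouse. The members just inside were Cacng1, with a value of at least 1 in 53 mice and 0 to 12 reads, and Scn10a, in 54 mice.

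All 56 mice were C57BL/6J females without a genetic change, 9 weeks old at sampling and kept in 12 h of light and 12 h of dark. They received food for 7 days either in the light phase, from zeitgeber time (ZT, hours after lights on) 0 to 12 (DRF, daytime-restricted feeding, 28 mice), or in the dark phase, from ZT12 to ZT0 (NRF, night-time-restricted feeding, 28 mice). Every 4 h from ZT0 to ZT24, at 7 time points, 4 mice of each regimen were sampled, and the ZT24 mice were not the ZT0 mice. No group had free access to food, so the 2 regimens were compared with each other and not with unrestricted feeding.

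A voltage-gated sodium channel is built around 1 large pore protein (the Scn genes ending in a) and is joined by small beta subunits (those ending in b), which tune gating and membrane placement. A voltage-gated calcium channel has a Cacna1 pore, and the high-voltage types add an intracellular beta subunit (Cacnb) and an extracellular alpha2delta subunit (Cacna2d), whereas the low-voltage T-type pores work without them. In the suprachiasmatic nucleus and its neighbours these channels carry spikes, pacemaker depolarisation, burst firing and transmitter release, and L-type calcium currents there are known to vary with the time of day. The Cacng family holds the gamma subunit of muscle calcium channels and the TARPs, which carry AMPA-type glutamate receptors to the synapse and were named for their sequence likeness.

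Levels are given as CPM (reads of a gene scaled to the normalized size of its library, recovered from the deposited values) for comparisons between mice, and as length-corrected TPM for comparisons between genes. The normalized library size was 29591266 to 34493345 reads. The 8 anterior hypothalamus markers, among them Six6 (median 12.5 TPM), Avp and Vip, were all measured, and the pituitary genes Prl and Gh had a median of 0 TPM. Markers listed for other brain regions were measured as well. The medians were 12.1 TPM for Tbr1 and 1.36 TPM for Neurod6 (cortex), and 23.5 TPM for Tcf7l2 and 6.66 TPM for Cabp7 (thalamus). How much tissue of other regions the samples held was not tested. The libraries of DRF ZT16 replicates 3 and 4 stood apart in how the level of a gene depends on its GC content, at 0.31 to 0.44 log2 units per 10% GC against −0.13 to 0.14 in the other 54. In bulk tissue, fewer cells of a type and less RNA per cell cannot be told apart.

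Of the sodium channel pores, Scn2a had the highest length-corrected level, 102 ± 13.6 TPM (SD, n = 56). Scn1a followed at 66.6 ± 8.47 TPM and Scn8a at 54.3 ± 5.86 TPM, and these neighbours differed by less than their combined spread. These 3 genes encode the main neuronal sodium channel pores of the adult brain. Scn3a, best known from immature neurons, stood at 37.5 ± 4.48 TPM. Scn9a, known from sensory and neuroendocrine neurons, stood at 21.5 ± 3.93 TPM. The peripheral sensory pores Scn11a (1.01 ± 0.190 TPM) and Scn10a (0.218 ± 0.0981 TPM) and the skeletal muscle pore Scn4a (0.049 ± 0.0351 TPM) were near the lower end of the table. Of the beta subunits, Scn2b had 264 ± 19.9 TPM, Scn3b 155 ± 8.98 TPM and Scn4b 20.8 ± 13.4 TPM. Scn4b varied most of these between mice, from 371 to 3052 reads.

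Among the calcium channel pores, Cacna1b, the N-type pore of presynaptic terminals, led with 81.2 ± 6.29 TPM. The T-type pore Cacna1g stood at 67.2 ± 7.56 TPM, above the other T-type pores Cacna1i (38.5 ± 4.28 TPM) and Cacna1h (30.4 ± 3.26 TPM). The P/Q-type pore Cacna1a (51.0 ± 3.59 TPM) and the R-type pore Cacna1e (49.6 ± 6.22 TPM) did not differ beyond their spread. The neuronal L-type pores Cacna1d (20.7 ± 1.75 TPM) and Cacna1c (18.8 ± 1.80 TPM) were likewise close, while the muscle pore Cacna1s (1.26 ± 0.252 TPM) and the retinal pore Cacna1f (0.153 ± 0.0356 TPM) were low. Of the accessory genes, Cacna2d2 (125 ± 13.9 TPM), Cacnb3 (113 ± 8.54 TPM) and Cacng7 (327 ± 26.9 TPM) had the highest level of their families. Cacnb1 (110 ± 9.15 TPM) was within the spread of Cacnb3.

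**Figure D1:**
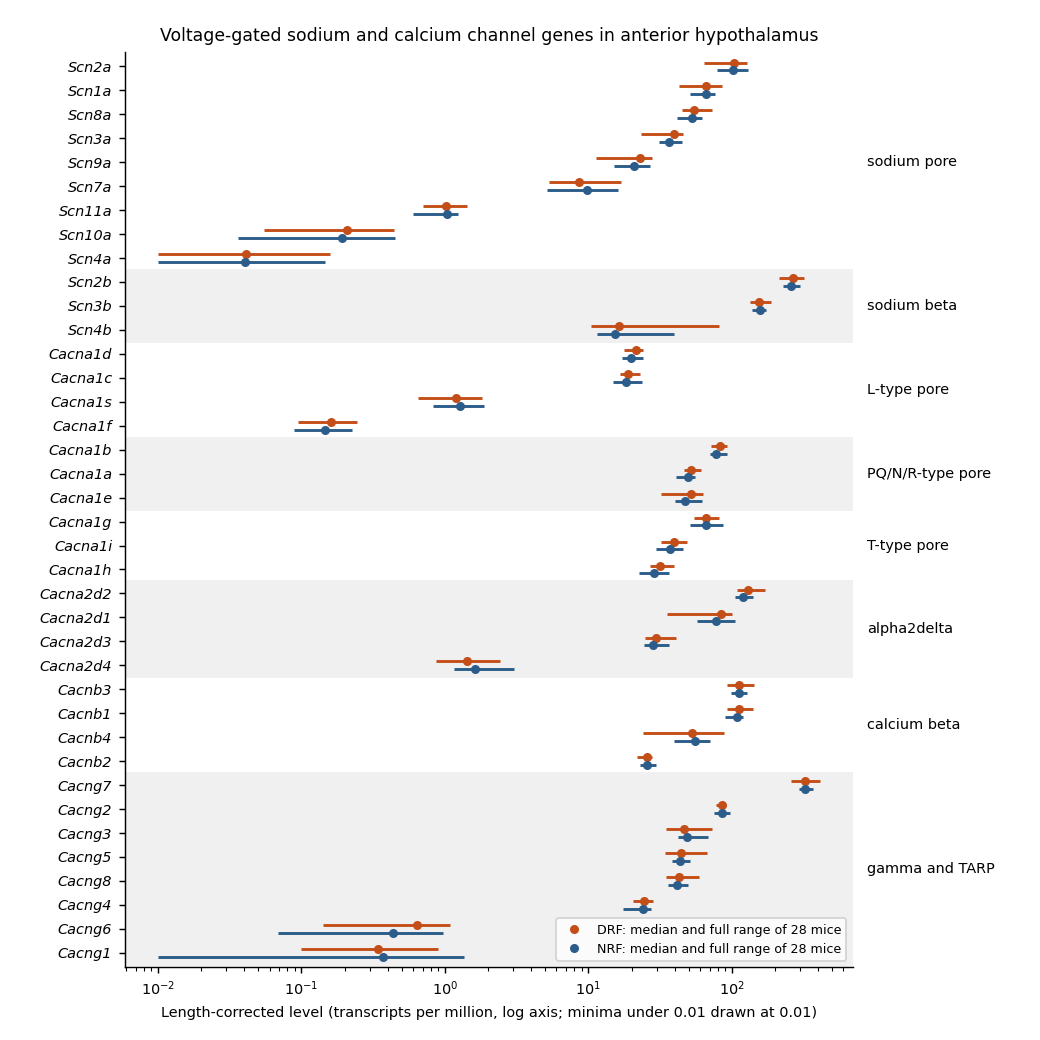
Length-corrected level (TPM, log axis) of 38 genes by subunit family, with the median and the full range of the 28 DRF mice (orange) and 28 NRF mice (blue). The mean over all mice is 0.049 TPM for Scn4a and 327 TPM for Cacng7, and the ranges of the 2 regimens overlap for every gene drawn.

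Whether the feeding regimen shifted the mean level of these genes over the day was tested with limma on log2(CPM + 1), with 7 time points of 4 mice per regimen. At an adjusted p-value under 0.05, 7 of 39 genes (17.9%) differed, 5 higher and 2 lower in DRF, beside 10.5% of the 16069 genes tested, of which 5.61% were higher and 4.92% lower. In all, 26 of the 39 differences were above 0 and 13 below, with a median of 0.017 on the log2 scale against −0.0023 over all genes. The called differences described here lay between −0.19 and 0.12 on the log2 scale, and in all 7 genes the ranges of the regimens overlapped.

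Among the higher genes were pores of the L, N and T types. Cacna1d (chr14:30039941-30491156), the L-type pore that opens at comparatively negative voltages and serves pacemaking, had 53.3, 62.2 and 68.7 CPM in DRF (lowest, median and highest of 28 mice) and 50.4, 57.8 and 66.9 CPM in NRF. The difference was 0.089 ± 0.020 log2 units (SE; adjusted p = 0.00382, limma), with the DRF mean above at 6 of 7 time points. The lowest, median and highest DRF mouse each lay above its NRF counterpart, with wide overlap of the mice between.

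The T-type pores, which open near resting potential and support bursts and rebound spikes, split. Cacna1i (chr15:80287238-80398292) had 70.6, 88.9 and 113 CPM in DRF and 68.3, 83.2 and 101 CPM in NRF (difference 0.11 ± 0.026, adjusted p = 0.00426, limma). Cacna1h (chr17:25374285-25436334) had 59.0, 70.1 and 89.9 CPM in DRF and 50.9, 65.4 and 78.7 CPM in NRF (0.12 ± 0.034, adjusted p = 0.0155). Both were above NRF at 5 of 7 time points. Cacna1g, the most abundant T-type pore, had a difference of −0.032 ± 0.037 (95% interval −0.11 to 0.043, adjusted p = 0.639) and did not pass.

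Cacna1b (chr2:24603860-24763200), the N-type pore, had 170, 188 and 207 CPM in DRF and 163, 178 and 204 CPM in NRF (0.078 ± 0.021, adjusted p = 0.013), with the DRF mean above at all 7 time points. At ZT24 and ZT12 this was by only 0.0 ± 0.055 and 0.012 ± 0.055 log2 units (SE), so the regimens were level there. The main neuronal sodium channel pores did not pass, with differences of 0.003 (Scn1a), 0.006 (Scn2a) and 0.040 (Scn8a).

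Of the lower genes, Cacna2d4 (chr6:119236524-119352407), an alpha2delta subunit best known from photoreceptors, had 1.88, 3.04 and 5.09 CPM in DRF and 2.63, 3.53 and 6.56 CPM in NRF (−0.19 ± 0.061, adjusted p = 0.0358). The NRF values lay above the DRF values at the lowest, the median and the highest mouse. Cacna2d4 has few reads, 57 to 202 per mouse.

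Markers of other cells and regions moved with the regimen as well. Of 5 oligodendrocyte markers, 2 passed and were lower in DRF (among them Mog, by 0.15 log2 units), and the 5 summed to 2410 to 5190 TPM in DRF and 3310 to 5210 TPM in NRF. The thalamic transcription factor Tcf7l2 was lower in DRF by 0.46 log2 units (adjusted p = 0.0315), the other thalamic marker, Cabp7, did not pass, and the 2 summed to 13.4 to 53.5 TPM in DRF and 16.3 to 62.2 TPM in NRF. Of 8 neuronal markers, 1 was higher (Rbfox3) and 2 were lower (Snap25 and Stmn2), and they summed to 3360 to 4160 TPM in DRF and 3580 to 4290 TPM in NRF. Among 6 astrocyte markers, 2 were higher (Aldh1l1 by 0.094 and Sox9 by 0.125 log2 units) and 1 was lower (Aqp4 by 0.208). One list of 2 oligodendrocyte precursor markers had 1 higher (Cspg4), and 1 of 5 microglial markers was lower (P2ry12). No endothelial and mural, anterior hypothalamus or cortex marker passed. Over all genes, 5.61% were higher and 4.92% lower. The part of all these markers in the channel differences was not tested. With the trends of each library with GC content, length and the mean level of a gene removed, 2 of the 5 higher genes still passed (among them Cacna1i at 0.061, adjusted p = 0.0316). Both lower genes did as well (among them Cacna2d4, adjusted p = 0.00661), beside 7.77% of all genes in either direction. Cacna1d (0.050, adjusted p = 0.0593), Cacna1h (0.070, adjusted p = 0.0681) and Cacna1b (0.040, adjusted p = 0.142) did not pass in that fit. None of these 3 passed without replicate 1 either (adjusted p = 0.0859, 0.0774 and 0.0877). The calls also depended on time points: no gene was lower without ZT0, without ZT4, without ZT12 or without ZT16, beside 2.61%, 3.34%, 3.36% and 4.71% of all genes, and 3 were higher without ZT20, beside 4.08%. These shares of all genes were also below those with every time point. Cacna1i did not pass without ZT4 (adjusted p = 0.064) or without ZT16 (adjusted p = 0.0715).

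**Figure D2:**
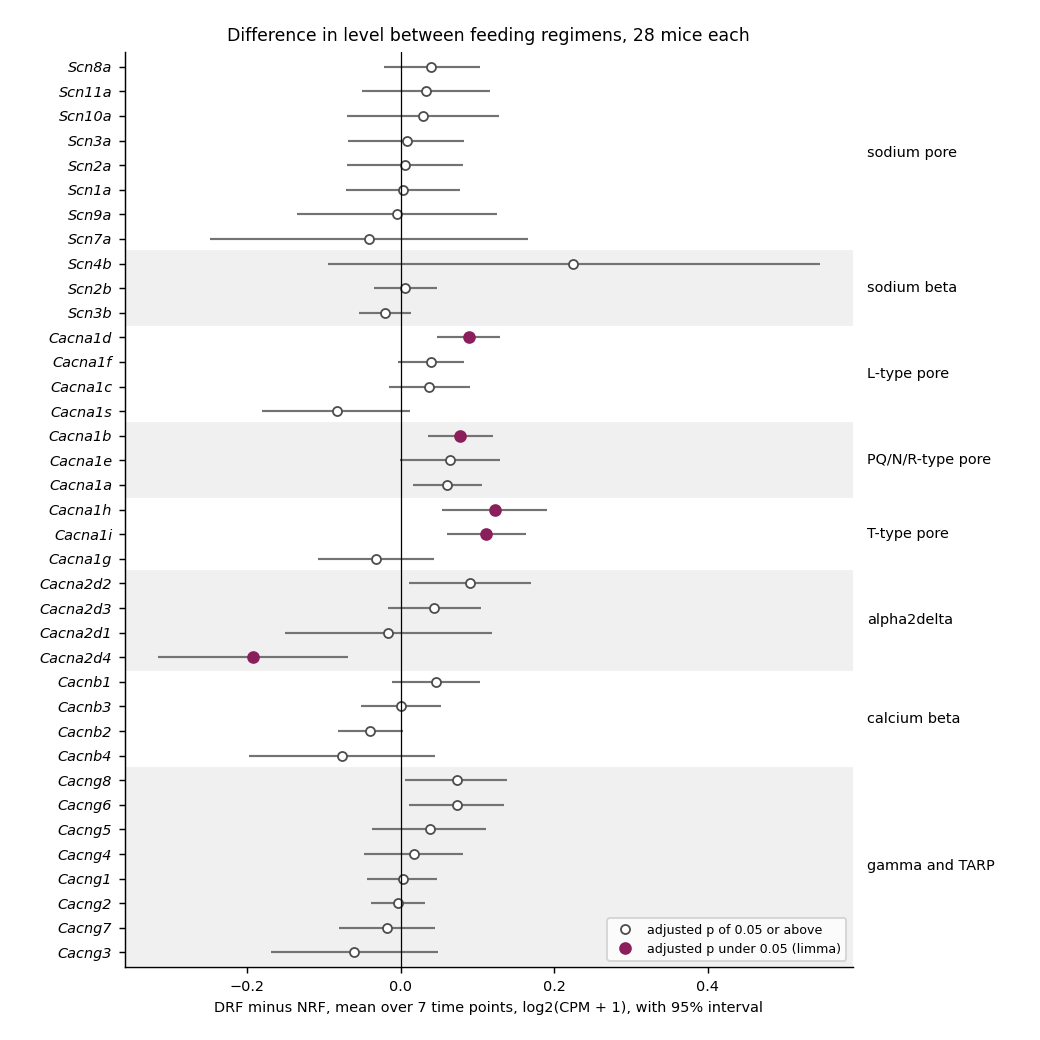
Difference in level (DRF minus NRF, log2(CPM + 1), mean over 7 time points) of 37 genes by family, with the 95% interval; filled circles have an adjusted p-value under 0.05 (limma). Cacna1d, Cacna1b, Cacna1h and Cacna1i are filled right of 0, and Cacna2d4 is filled left of 0.

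Whether the transcripts followed a daily rhythm was tested in each regimen by JTK_CYCLE and the Lomb-Scargle periodogram, with periods of 20 to 28 h and combined p-values. In NRF, 9 of 39 genes (23.1%) were rhythmic, beside 27.5% of all 16245 genes, so the share was not above the background. In DRF, none of the 39 was rhythmic (0%), beside 0.813% of all genes. The smallest adjusted p-value in DRF was 0.628. Before adjustment, 1 gene (Cacna1d) was under 0.05 in DRF and 14 genes in NRF, and the shares of all genes before adjustment are not given here. Without ZT4, Cacna1i was rhythmic in DRF (adjusted p = 0.0274). A cosine of 24 h fitted by limma called 1 of the 39 in DRF, Cacna1d (adjusted p = 0.0491, amplitude 0.083 log2 units, peak at ZT22.3), beside 4.05% of all genes, and 6 in NRF, beside 27.9%.

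Cacna1i was rhythmic in NRF (adjusted p = 0.00095). Its mean was 75.0 ± 7.77 CPM (SD, n = 4) at ZT12 and 94.7 ± 4.82 CPM at ZT24, with 68.3, 80.6, 68.3 and 82.8 CPM in the ZT12 mice and 95.5, 93.3, 101 and 89.1 CPM in the ZT24 mice. The 2 groups of mice did not overlap, but they were picked as the lowest and highest of the 7 means. The fitted peak was at ZT22.0 with an amplitude of 0.14 ± 0.034 log2 units.

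Pores and beta subunits of the sodium channel family were rhythmic in NRF. Scn9a (adjusted p = 0.000903) went from 55.7 ± 2.60 CPM at ZT16 to 75.1 ± 2.64 CPM at ZT24, with 55.9, 56.0, 52.4 and 58.7 CPM against 78.0, 71.6, 75.8 and 74.7 CPM. Scn3a (adjusted p = 0.0167) went from 99.2 ± 4.56 CPM at ZT4 to 121 ± 2.71 CPM at ZT24. In both genes every ZT24 mouse was above every mouse of the lower group. These groups had the lowest and highest of the 7 means and were picked for that, so the separation adds no support. At ZT0, the same clock hour as ZT24, Scn9a had 66.3 ± 4.21 CPM and Scn3a 105 ± 3.24 CPM.

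Scn2b (adjusted p = 0.0182) and Scn3b (adjusted p = 0.0184) had fitted peaks at ZT19.3 and ZT20.5. Neither passed the 24-h cosine fit that gave these peaks (adjusted p = 0.201 and 0.296, limma). The amplitudes were 0.060 ± 0.026 and 0.037 ± 0.019 log2 units (SE), so Scn3b ranged only from 191 ± 7.12 CPM at ZT4 to 201 ± 4.12 CPM at ZT20.

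The R-type pore Cacna1e (adjusted p = 0.0422) had 260 ± 15.1 CPM at ZT16, 288 ± 10.6 CPM at ZT20 and 327 ± 17.1 CPM at ZT24. At ZT0, the same clock hour as ZT24, Cacna1e had 281 ± 8.94 CPM. Its rhythm call held in 5 of 18 alternatives. The TARP gene Cacng2, or stargazin (adjusted p = 0.0289), was lowest at ZT0 (99.2 ± 1.44 CPM) and highest at ZT12 (114 ± 7.97 CPM). The muscle gamma subunit gene Cacng1 (adjusted p = 0.0466) had only 0.256 ± 0.117 CPM at its highest group, ZT12, and 0.0247 ± 0.0316 CPM at ZT24. In reads, that was 0 to 12 in any mouse, so its course rests on a handful of reads per library. Of the 9 rhythmic genes, 6 had fitted peaks between ZT15 and ZT24 and 3 between ZT9 and ZT15. Over all genes in NRF, rhythmic or not, 32.4% had fitted peaks at ZT18 to ZT24 and 17.2% at ZT12 to ZT18. Another 32.8% lay at ZT6 to ZT12 and 17.6% at ZT0 to ZT6. Shares among all rhythmic genes are not given here. Besides Scn2b and Scn3b, the cosine fit in NRF was not passed by Scn9a, Scn3a and Cacna1e (adjusted p = 0.0684, 0.184 and 0.132, limma). Their peak times are uncertain.

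The trend of level with exon length differed between the NRF groups. The slope, in log2 units per doubling of length, was −0.036 to −0.006 in the ZT0 mice, −0.089 to −0.013 in the ZT4 mice and 0.034 to 0.056 in the ZT24 mice, so it differed between ZT0 and ZT24, which share a clock hour. Channel genes are long, with a median exon length of 8719 bases against 4159 bases over all genes tested. With the trends of each library with length, GC content and the mean level of a gene removed, 5 of the 39 genes were rhythmic in NRF, beside 28.3% of all genes. These were Cacna1i (adjusted p = 1.13e-05), Cacnb2 (0.00768), Scn9a (0.0156), Cacnb3 (0.0183) and Scn2b (0.0227), whereas Scn3a and Scn3b were at an adjusted p of 1. The Lomb-Scargle periodogram alone called none of the 39 genes and none of all genes. Without replicate 1 none was called, without replicate 2 there was 1 and without replicate 3 there were 2, beside 15.1%, 12.9% and 16.2% of all genes. Without ZT24 1 was called (Cacng2), beside 18.2% of all genes, and without ZT8 or without ZT20 there were 4, beside 14.5% and 19.7%.

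Mice at ZT24 and ZT0 were taken at the same clock hour. Among the NRF mice, all 4 ZT24 values lay above all 4 ZT0 values in 13 of the 39 genes (33.3%), beside 11.3% of all genes tested, and below them in 1, beside 10.4%. The 13 were Cacna1a, Cacna1b, Cacna1c, Cacna1e, Cacna2d1, Cacnb4, Cacng2, Scn1a, Scn2a, Scn2b, Scn3a, Scn8a and Scn9a, which include the main neuronal pores. For Scn2a the means were 282 ± 17.2 CPM at ZT0 and 343 ± 13.5 CPM at ZT24, and for Cacna1c 80.8 ± 2.91 and 98.9 ± 8.20 CPM.

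In DRF the same held in 5 genes (12.8%, beside 4.98% of all genes): Cacna1e, Cacna1g, Cacng8, Scn2a and Scn2b. The median ZT24 minus ZT0 difference of the 39 genes was 0.11 log2 units in each regimen, against −0.0055 in NRF and −0.0058 in DRF over all genes. The length slope was −0.036 to −0.006 in the NRF ZT0 mice and −0.028 to 0.013 in the DRF ZT0 mice, against 0.015 to 0.067 in the DRF ZT24 mice. With the library trends removed, 3 genes were left in NRF (Cacna1b, Cacng2 and Scn2b, beside 6.25% of all genes) and 3 in DRF (Cacna1g, Cacng4 and Cacng8, beside 4.34%), and the median differences were 0.045 and 0.073. No test was made of ZT24 against ZT0, and this comparison was chosen after the values were seen.

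**Figure D3:**
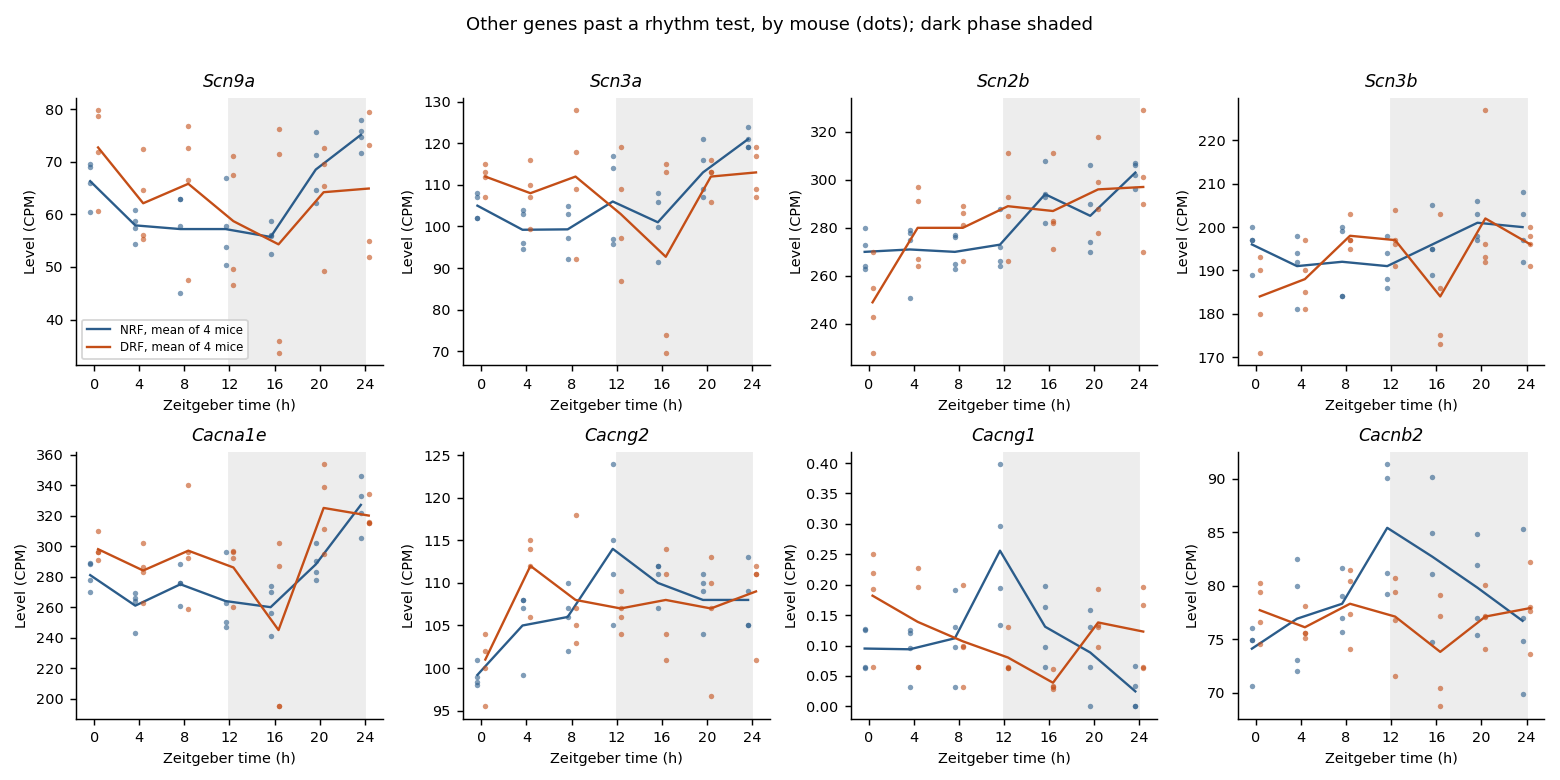
Level (CPM) against zeitgeber time of 8 genes past a rhythm test, with each mouse as a dot and lines through the means of 4 mice (NRF blue, DRF orange; dark phase shaded; each vertical axis starts above 0 except for Cacng1). In NRF, Scn9a, Scn3a and Cacna1e are highest at ZT24, and 2 of the 4 DRF mice at ZT16 lie far below the others for Scn9a, Scn3a and Cacna1e.

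Whether the 24-h course differed between regimens was tested directly with limma, as a difference in the cosine and sine terms. It was called for 3 of 39 genes (7.69%), beside 11.0% of all genes, so this share was not above the background either. The amplitude was larger in NRF for 25 of the 39 genes and in DRF for 14, and for 61.9% of all genes it was larger in NRF. With the library trends removed, 7 of the 39 differed in course, beside 17.3% of all genes, among them Cacna1i (adjusted p = 0.00133) and Cacng1 (0.00353).

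Cacna1i differed in course (adjusted p = 0.0202), with a fitted peak at ZT15.1 and an amplitude of 0.082 ± 0.034 in DRF against ZT22.0 and 0.14 ± 0.034 in NRF. At ZT4 the DRF mice had 104, 89.4, 97.2 and 102 CPM and the NRF mice 87.2, 70.9, 81.2 and 77.4 CPM (difference 0.31 ± 0.068, adjusted p = 0.00696, limma). At ZT12 they had 87.4, 84.9, 94.9 and 94.9 CPM against 68.3, 80.6, 68.3 and 82.8 CPM (0.27 ± 0.068, adjusted p = 0.034). In both sets every DRF mouse was above every NRF mouse. At ZT8, also within the hours when only DRF mice had food, the mice overlapped. They had 86.7, 77.2, 85.3 and 83.9 CPM in DRF against 79.1, 74.7, 84 and 74.9 CPM in NRF (0.091 ± 0.068, adjusted p = 0.568, limma).

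At ZT16 the DRF mice had 97.1, 100, 108 and 113 CPM of Cacna1i and the NRF mice 87.7, 78.6, 85.8 and 80.3 CPM (0.32 ± 0.068, adjusted p = 0.00222). The 2 higher DRF mice are those whose libraries stood apart in their GC trend. Without them the difference was 0.24 (adjusted p = 0.218), and with the library trends removed it was 0.26 (adjusted p = 0.000931). At ZT0 and ZT24 the DRF mean was below the NRF mean, by 0.15 and 0.10 log2 units, and neither passed. With the library trends removed, the ZT0 difference passed (adjusted p = 0.0196, limma) and that at ZT24 did not (0.303). The difference in course no longer passed without ZT0 (adjusted p = 0.15), without ZT12 (0.0599) or without ZT24 (0.117).

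Cacna1h passed at ZT4, with 84.4, 70.7, 71.9 and 78.2 CPM in DRF against 68.8, 56.3, 59.2 and 58.5 CPM in NRF (0.33 ± 0.090, adjusted p = 0.0296), again without overlap. Cacna1d passed at ZT0, with 66.6, 62.7, 65.5 and 64.1 CPM in DRF against 54.7, 50.4, 60.3 and 59.8 CPM in NRF (0.20 ± 0.053, adjusted p = 0.0175). It also passed at ZT20, with 68.1, 62.8, 68.7 and 63.3 CPM against 57.7, 56.1, 58.1 and 55.1 CPM (0.21 ± 0.053, adjusted p = 0.0367). At ZT24 the 2 regimens had 63.3 ± 3.37 and 64.3 ± 3.25 CPM of Cacna1d, so at that sampling of the same clock hour the regimens differed by less than their spread.

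Cacnb2, an intracellular beta subunit that brings high-voltage calcium channel pores to the membrane, also differed in course (adjusted p = 0.0373). Its amplitude was 0.082 ± 0.021 in NRF, with 85.4 ± 6.16 CPM at ZT12 and 74.1 ± 2.39 CPM at ZT0, against 0.022 ± 0.021 in DRF, where group means stayed between 73.8 and 78.3 CPM. It did not pass without ZT12 (adjusted p = 0.114), with the library trends removed (0.34) or without the 2 libraries (0.12). Cacng1 had the smallest p-value (adjusted p = 0.00309), with 0.399, 0.296, 0.195 and 0.133 CPM in NRF against 0.0643, 0.131, 0.0637 and 0.0624 CPM in DRF at ZT12. Without ZT12 its adjusted p was 0.0661.

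**Figure D4:**
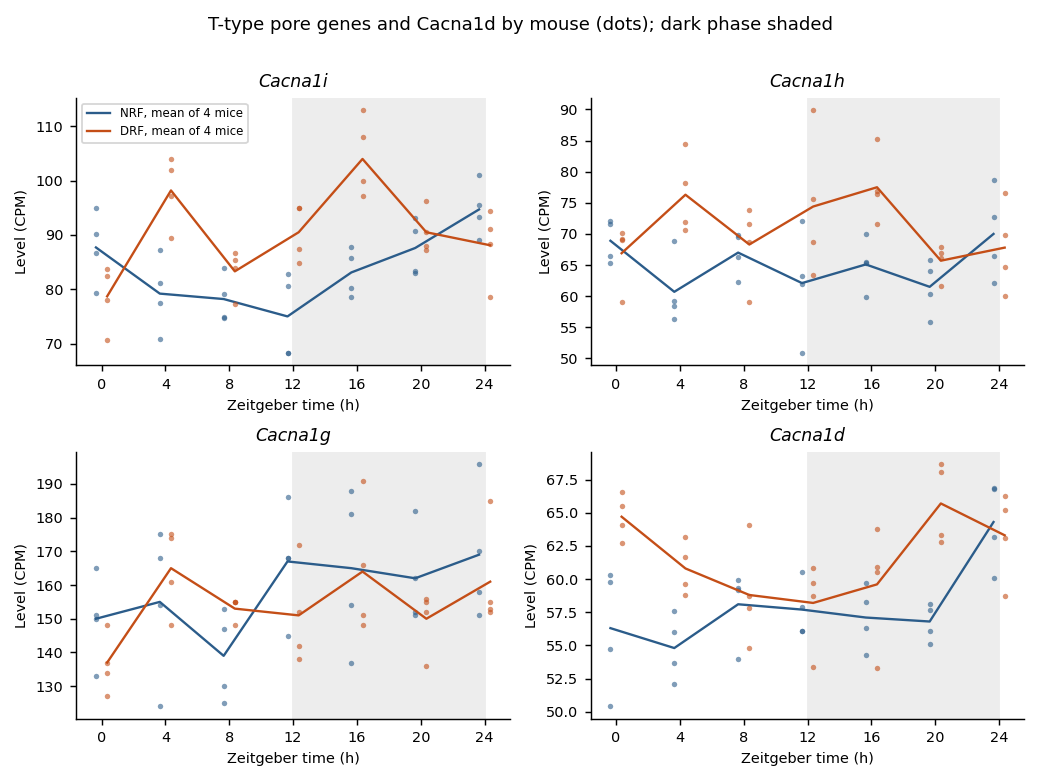
Level (CPM) against zeitgeber time of the T-type pore genes Cacna1i, Cacna1h and Cacna1g and of the L-type pore gene Cacna1d, with each mouse as a dot and lines through the means of 4 mice (NRF blue, DRF orange; dark phase shaded; the vertical axes do not start at 0). For Cacna1i every DRF mouse is above every NRF mouse at ZT4, ZT12 and ZT16, and for Cacna1d at ZT0, ZT4 and ZT20.

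At single time points, 1 of 39 genes passed at ZT0 (beside 4.49% of all genes), 2 at ZT4 (3.92%), 0 at ZT8 (0.174%), 1 at ZT12 (1.49%), 7 at ZT16 (20.2%), 1 at ZT20 (1.13%) and 0 at ZT24 (0.274%). Before adjustment, 8 genes at ZT0, 9 at ZT4, 5 at ZT8, 11 at ZT12, 9 at ZT16, 9 at ZT20 and 1 at ZT24 were under 0.05. The shares of all genes under 0.05 before adjustment are not given here, so these counts have no background beside them. The 7 at ZT16, 17.9% of the 39, were Cacna1i and Cacna1h, higher in DRF (6.69% of all genes were), and Cacnb4, Scn1a, Cacnb2, Cacna2d4 and Cacng3, lower in DRF (13.5% of all genes).

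None of the ZT16 calls was kept without the 2 libraries that stood apart, a fit that leaves 2 DRF mice at ZT16. For Cacnb4, the beta subunit gene mutated in the lethargic mouse, the DRF mice had 104, 111, 55.6 and 50.8 CPM and the NRF mice 90.1, 117, 124 and 132 CPM (−0.59 ± 0.16, adjusted p = 0.00865). For Scn1a they had 166, 164, 114 and 126 CPM against 155, 180, 191 and 186 CPM (−0.33 ± 0.098, adjusted p = 0.0152). In both genes the 2 low mice are replicates 3 and 4, and without them the differences were −0.092 and −0.11 (adjusted p = 0.873 and 0.758).

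For Cacna2d4 and Cacng3, a TARP, the 2 remaining DRF mice lay further from NRF. Cacna2d4 had 2.28, 1.88, 3.0 and 3.42 CPM in DRF against 3.80, 3.52, 4.89 and 5.16 CPM in NRF, a difference of −0.56 with all mice and −0.78 without replicates 3 and 4. Cacng3 had 26.1, 22.2, 27.8 and 36.6 CPM against 30.6, 38.5, 41.6 and 36.7 CPM, a difference of −0.39 with all mice and −0.59 without them. Neither passed without these mice (adjusted p = 0.0756 and 0.143). With the library trends removed and all mice kept, Cacna2d4 (adjusted p = 0.00641, limma), Cacng3 (0.0231), Cacnb4 (0.031) and Cacna1i (0.000931) passed at ZT16. Cacna1h (0.0646), Scn1a (0.152) and Cacnb2 (0.223) did not pass in that fit. In all, 0 of the 39 genes passed at ZT16 without the 2 libraries, beside 0.205% of all genes.

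**Figure D5:**
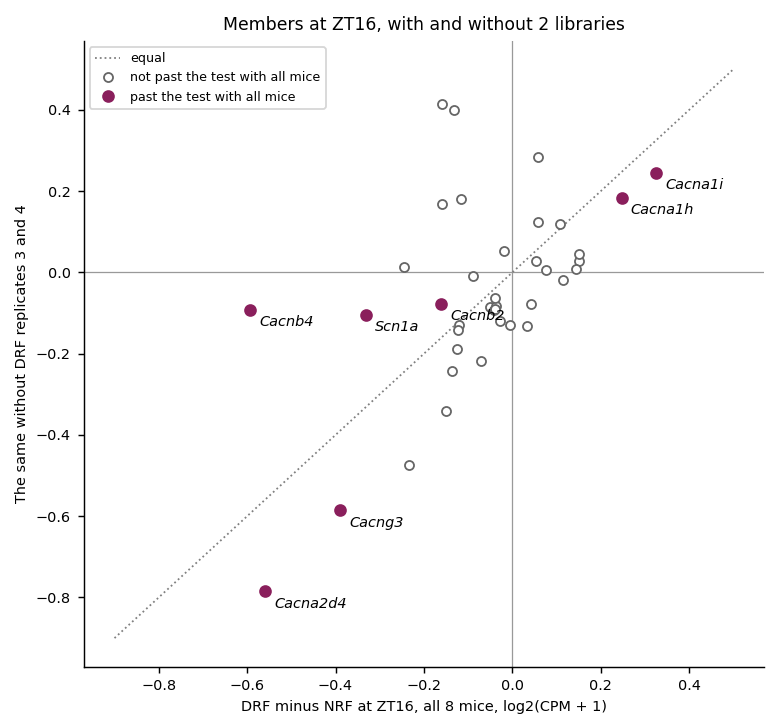
DRF minus NRF at ZT16 (log2(CPM + 1)) of the 39 genes with all 8 mice (horizontal) and without DRF replicates 3 and 4 (vertical), with the dotted line marking equal values. Cacnb4 and Scn1a move close to 0 on the vertical axis, whereas Cacna2d4 and Cacng3 lie below the line.

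Scn1a, Scn2a, Scn3a, Scn7a and Scn9a lie together on chromosome 2 (chr2:65457118-66784910, GRCm38). Their fitted peaks in NRF lay between ZT17.4 and ZT22.7. None of the 5 passed the cosine fit that gave these peaks, in NRF (adjusted p = 0.0502 to 0.445, limma) or in DRF (0.159 to 0.605). In DRF at ZT16, the 2 libraries that stood apart (replicates 3 and 4) lay below the other 2 for Scn1a, Scn2a, Scn3a and Scn9a. For Scn9a the 4 mice had 76.2, 71.4, 35.9 and 33.7 CPM. None of the 5 passed the test of a difference in course (adjusted p = 0.0711 to 0.464). Scn1a, Scn2a, Scn3a, Scn9a and Cacna1d had read numbers that did not come out whole, so their lengths were taken from the annotation and their levels are less certain.

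Promoter windows in RefSeq (GRCm38.p6, 250 bases before to 50 after a start site) were matched to 29 of the 39 genes. They were searched on both strands for the E-box CACGTG, bound by CLOCK and BMAL1, the D-box TTATGTAA, bound by PAR-bZIP factors, and the cAMP response element TGACGTCA. Of all 27025 genes with a window, 8.09% held the E-box, 1.11% the D-box and 2.03% the response element. The 29 genes held 0 E-boxes and 0 response elements, and 1, Scn1a, held a D-box, which begins 2 bases before the start site. It is shown as the single match, with the D-box in capitals (chr2:66440832-66440957, minus strand).

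Scn1a: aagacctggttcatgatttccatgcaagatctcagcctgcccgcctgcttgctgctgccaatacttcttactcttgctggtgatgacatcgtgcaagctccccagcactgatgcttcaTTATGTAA

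A match describes the letters only. Scn1a was not among the genes rhythmic in NRF (adjusted p = 0.142) or DRF.

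Genes that work with these channels were read from a separate list of 22, all past the filter. In level, 2 were higher in DRF (Unc79, of the sodium leak channel complex, by 0.086, and the axon initial segment scaffold Ank3 by 0.098 log2 units) and 3 were lower (among them Fgf13, a cytoplasmic sodium channel partner, by 0.12, and the calmodulin gene Calm2, by 0.071), beside 5.61% and 4.92% of all genes. In NRF, 3 were rhythmic, among them Unc79 (adjusted p = 0.00259) and Fam155a, another part of the leak channel complex (0.0153), beside 27.5% of all genes. None of the 22 was rhythmic in DRF, beside 0.813%, or differed in course between regimens, beside 11.0%. The leak pore Nalcn itself had 215 ± 23.1 CPM in DRF and 215 ± 13.5 CPM in NRF (SD, n = 28), a difference of −0.002 ± 0.028 log2 units.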

How the data were processed

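Poly-A RNA of 56 anterior hypothalami was sequenced. The authors mapped reads with HISAT2 and Bowtie2 to GRCm38.p6, quantified them with RSEM, normalized by TMM in edgeR and deposited 1 score per gene and mouse, named TPM. Its steps are those of log2(CPM + 1) over gene length, scaled so that each mouse sums to 999333 to 999720. Undoing these steps gave CPM, reads and TPM, with whole reads (within 0.02 in at least 90% of mice) for 15282 of 17564 genes and 35 of the 40 channel genes. Recovered reads per library were 27884679 to 31855724. For unresolved genes lengths came from GENCODE. NCBI Gene IDs were matched to symbols for 17456 genes.

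Tests of rhythm used those deposited values (JTK_CYCLE and Lomb-Scargle, combined by Fisher's method, Benjamini-Hochberg adjusted within each regimen over 16245 genes). Levels, time points and courses were tested with limma 3.58.1 in R 4.3.3 on log2(CPM + 1) over the 16069 genes with a length. Both were tested on simulated data: with 16069 genes, a level difference of 0.2 log2 units was recovered in 80% of 100 changed genes and one of 0.4 in 99%. For a difference in course the shares were 65% and 97%, and for a rhythm in NRF 80% and 98%. The simulation used log2 values with independent noise and no library trends. Effects under 0.2, such as the called level differences, were not simulated. Values were given in full for genes past a test and for the most abundant gene of each family. The genes, lists and tests were chosen with earlier results of these data known. Replicates were separate mice (the closest pair of a group differed by 2.95 chi-square units per gene, against 1 for counting noise). Protein sequences were not used here. Alternatives covered the replicate block, the scale, the pseudocount, the filter, library trends, the mean-variance trend, and leaving out replicates, time points or 2 libraries. Some genes that the counts include are not reported here.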

Additional observations from a re-analysis of the deposited data

Results flagged for a closer look

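In 12 of 224 groups of 4 mice (16 genes in 14 groups), 1 mouse stood apart from the other 3 by Dixon's criterion, about the number that chance alone gives at 1 group in 20. In NRF these were Cacna1d at ZT8 (replicate 2, 54.0 CPM against 59.2 to 59.9), Scn2b at ZT4 (replicate 2, 251 against 275 to 279 CPM), Cacng2 at ZT4 (replicate 2, 99.2 against 107 to 108 CPM) and Cacna2d4 at ZT24 (replicate 4, 3.72 against 2.68 to 2.84 CPM). In DRF the lower mice were Cacna1h at ZT0 (replicate 3, 59.0 against 69 to 70.2 CPM), Cacng2 at ZT24 (replicate 2, 101 against 111 to 112 CPM) and Cacna1e at ZT12 (replicate 4, 260 against 292 to 297 CPM). The higher DRF mice were Cacng1 at ZT12 (replicate 2, 0.131 against 0.0624 to 0.0643 CPM) and at ZT16 (replicate 3, 0.0612 against 0.029 to 0.033 CPM), Scn3b at ZT20 (replicate 2, 227 against 192 to 196 CPM), Cacna1e at ZT24 (replicate 3, 334 against 315 to 316 CPM) and Cacng3 at ZT20 (replicate 2, 35.2 against 27.4 to 27.8 CPM).

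The 24-h course differed between DRF and NRF by a test of the difference itself for Cacng1 (adjusted p = 0.00309, limma), Cacna1i (adjusted p = 0.0202) and Cacnb2 (adjusted p = 0.0373).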

How the results depend on the processing

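No level call changed direction. That of Cacna1i held in 16 of 19 alternatives (adjusted p = 0.000918 to 0.0775, limma). Genes higher in DRF numbered 5, with 2 after removing the library trends (also with the replicate block), 3 without ZT20 and 2 to 8 without 1 replicate number. Genes lower in DRF numbered 2, with 1 on the scale of log2(deposited value + 1), without the filter, without the mean-variance trend or without ZT20, 0 without ZT0, ZT4, ZT12 or ZT16, and 0 to 2 without 1 replicate number. Differences in course numbered 3, with 7 after removing the library trends (6 with the replicate block as well), 1 without ZT0 or ZT12, and 0 to 4 without 1 replicate number. Calls summed over time points numbered 12, with 6 on the log2(deposited value + 1) scale and 1 to 13 without 1 replicate number. At ZT16 the 7 calls were 4 on that scale, 0 without the 2 DRF libraries and 0 to 11 without 1 replicate number. The 9 genes rhythmic in NRF were 5 after removing the trends or without ZT4, 4 without ZT8 or ZT20, 1 without ZT24, 0 by Lomb-Scargle alone, 5 by a cosine in limma with the replicate block, and 0 to 7 without 1 replicate number. In DRF, 1 gene instead of 0 was called without ZT4, by a cosine in limma, and by that fit with the block. Amplitude differences (NRF minus DRF) changed sign for Cacng1 without ZT12 (−0.022) and for Cacna1i without ZT4 (−0.047, still called), and the ZT16 difference of Cacnb2 became 0.15 with the trends removed. The shares of all genes called moved as well. With the library trends removed, level calls went from 10.5% to 7.77% of all genes and differences in course from 11.0% to 17.3%. Without the 2 DRF libraries, calls at ZT16 went from 20.2% to 0.205% of all genes. Where no share is given here or above, a changed count does not set the channel genes apart from all genes. The causes were not tested beyond the fewer mice and time points.

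Replicate numbers did not pair the mice: over 28 pairs of 1 number the median correlation of deviations was −0.011, from −0.49 to 0.24. With the replicate block, 6 genes were higher and 2 lower in level, 3 differed in course, 12 calls were made over time points and 7 at ZT16. Depth limits Cacng1, Cacng6, Scn10a and Cacna1f, with at most 25 reads per mouse.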
